A study of Mus musculus with 18 samples.

Results

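NF-kB is a family of dimeric transcription factors, and the 10 genes described here are its 5 Rel subunits (Nfkb1, Nfkb2, Rel, Rela and Relb) and 5 genes that regulate the pathway and are themselves known NF-kB targets (Nfkbia, Nfkbie, Tnfaip3, Bcl3 and Birc3), called feedback genes below. They were taken by their Ensembl identifiers in the mouse GENCODE annotation of GRCm38, 1 row each, from a table of read counts for 48023 genes, and all 10 passed the filter on low counts that left 15071 genes for testing. The RNA came from immortalized murine brown preadipocytes, the fibroblast-like precursors of brown fat cells, given either vehicle (Veh) or FGF6, a secreted fibroblast growth factor, for 4, 8 or 24 h, with 3 libraries in each of the 6 groups. The cells are an established line that carries the SV40 T antigen in every group, vehicle included, and were kept as undifferentiated cells in serum-containing growth medium. Total counts per library ranged from 24327816 to 33471980, and the lowest count of any of the 10 genes in any library was 76.

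In unstimulated cells NF-kB dimers are held in the cytoplasm by inhibitor of kappaB (IkB) proteins. Cytokine and Toll-like receptors activate the IkB kinase (IKK) complex, which marks the inhibitors for degradation, and the released dimers enter the nucleus and bind kappaB sites in DNA. Among the genes they switch on are their own inhibitors and the enzymes that take down the receptor complexes, so the transcript levels of such feedback genes are widely read as a sign of NF-kB activity, although other factors control them too.

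The kappaB sites in the promoters of these genes are shown first because they are the element through which the loop is known to close. RefSeq windows of 300 bases (250 before to 50 after an annotated start, build GRCm38.p6) covered 8 of the 10 genes, and Nfkb1 and Relb had none. The 8 genes had 11 windows, and 8 of these, from Nfkb2, Rel, Nfkbia, Nfkbie, Tnfaip3 and Bcl3, held at least 1 match to the kappaB consensus on either strand. Nfkb2 gave 3 of the windows with a match, and those at its later starts overlap and share a site. The windows are therefore not all separate observations. Over all 32851 windows of the table, 8.46% held a match. The feedback genes were chosen as known NF-kB targets, so setting their windows beside this share tests nothing. In the runs of 30 bases below, written 5' to 3' along the gene's own strand, capitals mark the 10 matched bases. For Nfkb2 only the matches in the window of its first start are shown, and its windows at later starts held others.
Nfkbia, chr12:55492657-55492686, minus strand: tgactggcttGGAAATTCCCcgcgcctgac
Nfkbie, chr17:45555584-45555613, plus strand: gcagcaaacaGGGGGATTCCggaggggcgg
Tnfaip3, chr10:19015516-19015545, minus strand: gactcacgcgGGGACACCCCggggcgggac
Tnfaip3, chr10:19015403-19015432, minus strand: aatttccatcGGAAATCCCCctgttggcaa
Bcl3, chr7:19822734-19822763, minus strand: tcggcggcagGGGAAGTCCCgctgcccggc
Rel, chr11:23771042-23771071, minus strand: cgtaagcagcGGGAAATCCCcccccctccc
Nfkb2, chr19:46304688-46304717, plus strand: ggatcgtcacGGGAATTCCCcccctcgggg
Nfkb2, chr19:46304716-46304745, plus strand: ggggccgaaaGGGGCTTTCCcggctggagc
The Nfkbia match began 29 bases before the start site and the Tnfaip3 matches 125 and 12 bases before it. The Rel site and the first Nfkb2 site each held a second match, shifted by 1 base, on the other strand. The windows of Rela and Birc3 held no match, which says only that these letters are not in this window. A match is a description of sequence, and binding was not measured in these data.

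One library stood apart within its group. Replicate 3 of vehicle at 24 h differed from its fellow replicates by a chi-square of 35.7 and 39.2 per degree of freedom over genes, whereas the other 16 replicate pairs lay between 2.37 and 7.35. Without this library 1 of the 10 genes was still called higher and 8 lower at 24 h, and the largest move of a log2 fold change at that time among the 10 genes was 0.0628. Nothing in the labels says that the replicates were separate cultures, so the p-values below measure the spread between these libraries, which may be technical. Levels are given as CPM, counts scaled to the size of each library, and differences as log2 fold changes of FGF6 over vehicle with their standard error (SE) and the adjusted p of edgeR's quasi-likelihood test over all 15071 genes, called at an adjusted p under 0.05.

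After FGF6 the 5 feedback genes fell at the later times, and the 5 subunits went different ways. At 4 h 5 of the 10 genes rose and 2 fell, where 28.6% of all tested genes rose and 34.2% fell. At 8 h 2 rose and 6 fell, against 32.4% and 38.4% of all tested genes. At 24 h 1 rose and 8 fell, against 35.9% and 37.9%. The median log2 fold change over the 10 genes was 0.08, -0.36 and -0.96 at the 3 times, where the median over all tested genes was -0.05, -0.05 and -0.02. All 5 feedback genes fell at 8 h and at 24 h, with a median of -0.63 and then -1.77, whereas Rela, which encodes the subunit that carries most transactivation in the classical pathway, was modestly higher at all 3 times. Scaling by library totals alone moved the median of all genes at 4 h by -0.10 and the share of genes called higher and lower there to 21.5% and 43.1%, and with it 3 of the 10 genes were called higher at 4 h in place of 5.

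**Figure D1:**
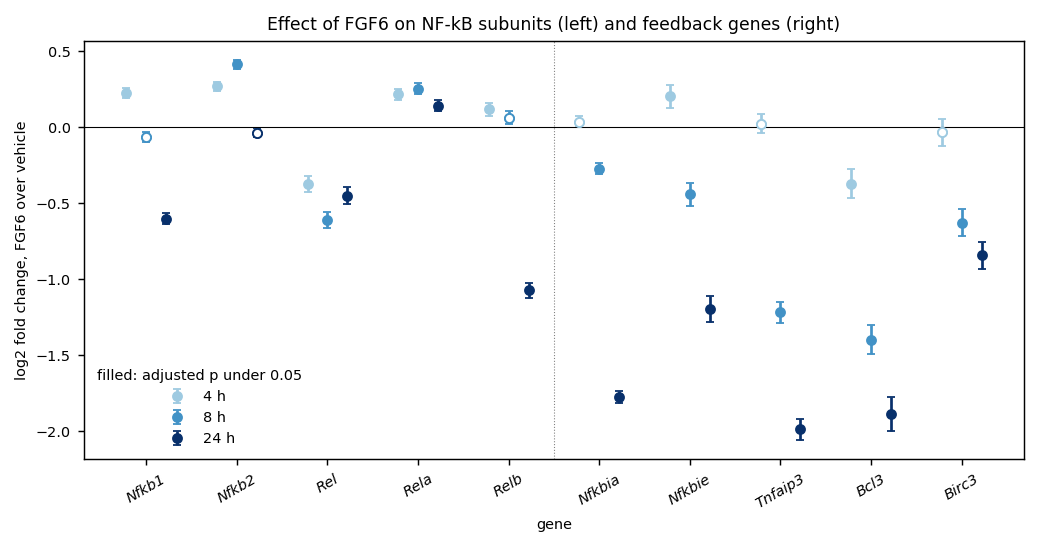
Log2 fold change of FGF6 over vehicle (y axis) for the 10 genes (x axis) at 4, 8 and 24 h, with error bars of 1 SE and filled points for an adjusted p under 0.05. The 5 feedback genes on the right lie below 0 at 8 and 24 h, down to -1.99 for Tnfaip3, whereas Rela stays between 0.14 and 0.25.

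Rela (ENSMUSG00000024927, chr19:5637483-5648130, plus strand) read 119, 117 and 113 CPM in the vehicle libraries at 4 h and 137, 134 and 136 CPM with FGF6. At 8 h the vehicle libraries read 125, 123 and 112 CPM and the FGF6 libraries 147, 143 and 140 CPM. At 24 h they read 121, 120.1 and 120.0 CPM with vehicle and 131, 134 and 134 CPM with FGF6. The FGF6 libraries were above the vehicle libraries at every time, with no overlap. The log2 fold changes were 0.22 at 4 h, 0.25 at 8 h and 0.14 at 24 h (SE 0.04 at each), and edgeR's adjusted p was 1.12e-05, 8.08e-07 and 0.00116. No change of its effect between the times was called. The nearest was that from 8 to 24 h (-0.11, SE 0.05, edgeR adjusted p = 0.0782), which passed at FDR 0.25.

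Rel (ENSMUSG00000020275, chr11:23736847-23770970, minus strand), the subunit best known from lymphoid cells, went the other way. Its vehicle libraries read 31.0, 31.4 and 30.2 CPM at 4 h, 34.1, 33.2 and 35.6 CPM at 8 h, and 29.3, 29.5 and 32.7 CPM at 24 h. The FGF6 libraries read 23.5, 23.4 and 24.7 CPM, then 23.0, 21.9 and 22.5 CPM, then 22.9, 20.5 and 23.5 CPM. Every FGF6 library lay below every vehicle library of the whole series. The log2 fold change was -0.37 at 4 h, -0.61 at 8 h and -0.45 at 24 h (SE 0.06, 0.05 and 0.06), with an edgeR adjusted p of 1.89e-06, 2.93e-10 and 8.28e-08.

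Relb (ENSMUSG00000002983, chr7:19606217-19629438, minus strand), the partner of the processed Nfkb2 product in the alternative pathway, moved little before it fell at 24 h. The vehicle libraries read 65.7, 65.2 and 60.4 CPM at 4 h, 59.1, 57.9 and 60.6 CPM at 8 h, and 61.7, 65.4 and 60.6 CPM at 24 h. With FGF6 they read 67.2, 69.9 and 70.7 CPM, then 62.3, 63.4 and 59.7 CPM, then 28.6, 29.5 and 31.3 CPM. The 24 h FGF6 libraries stood alone below all others. The fall at 24 h was 2.10-fold (log2 fold change -1.07, SE 0.05, edgeR adjusted p = 1.34e-16). The small rise at 4 h (0.12, SE 0.04, edgeR adjusted p = 0.0207) lost its call with library totals alone or upper-quartile scaling, and without vehicle replicate 3 of 4 h (log2 fold change 0.08, edgeR adjusted p = 0.136). At 8 h the groups overlapped and the log2 fold change of 0.06 did not pass. The 8 h value turned its sign with library totals alone, and it was called higher with DESeq2's size factors in edgeR (0.10, edgeR adjusted p = 0.0478) and when the 8 h libraries were fitted alone (0.10, edgeR adjusted p = 0.0388).

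Nfkb1 and Nfkb2 encode the precursors from which the DNA-binding subunits without a transactivation domain are made, and the unprocessed proteins act as inhibitors. For Nfkb1 (ENSMUSG00000028163, chr3:135584655-135691547, minus strand) the vehicle libraries read 202, 205 and 207 CPM at 4 h, 186, 192 and 187 CPM at 8 h, and 215, 217 and 209 CPM at 24 h. Its FGF6 libraries read 243, 241 and 234 CPM at 4 h, 189, 178 and 173 CPM at 8 h, and 146, 139 and 138 CPM at 24 h. The order of the groups thus turned over, from FGF6 above vehicle at 4 h (log2 fold change 0.23, SE 0.03, edgeR adjusted p = 2.35e-06) to FGF6 below vehicle at 24 h (-0.60, SE 0.03, edgeR adjusted p = 2.96e-14), with overlapping libraries at 8 h between them (-0.07, SE 0.03, edgeR adjusted p = 0.0894). The 8 h value was called lower with library totals alone (-0.13, edgeR adjusted p = 0.00174), with upper-quartile scaling (-0.11, edgeR adjusted p = 0.00526) and without FGF6 replicate 1 of 8 h (-0.10, edgeR adjusted p = 0.0132).

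Nfkb2 (ENSMUSG00000025225, chr19:46304320-46312385, plus strand) rose at 4 and 8 h and did not pass the test at 24 h. Vehicle libraries read 194.0, 184 and 184 CPM at 4 h, 173, 178 and 173 CPM at 8 h, and 166, 170.0 and 168 CPM at 24 h. The FGF6 libraries read 229, 226 and 224 CPM, then 235, 233 and 229.8 CPM, then 164, 169 and 159.6 CPM. FGF6 was above vehicle without overlap at 4 and 8 h, and the groups overlapped at 24 h. The log2 fold changes were 0.27, 0.41 and -0.03 (SE 0.03 each), with an edgeR adjusted p of 2.84e-08, 7.17e-12 and 0.319. Of its 4584 exonic bases 830 overlap genes on the opposite strand, among them Psd, and whether counting used strand is not stated in the sources used here.

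**Figure D2:**
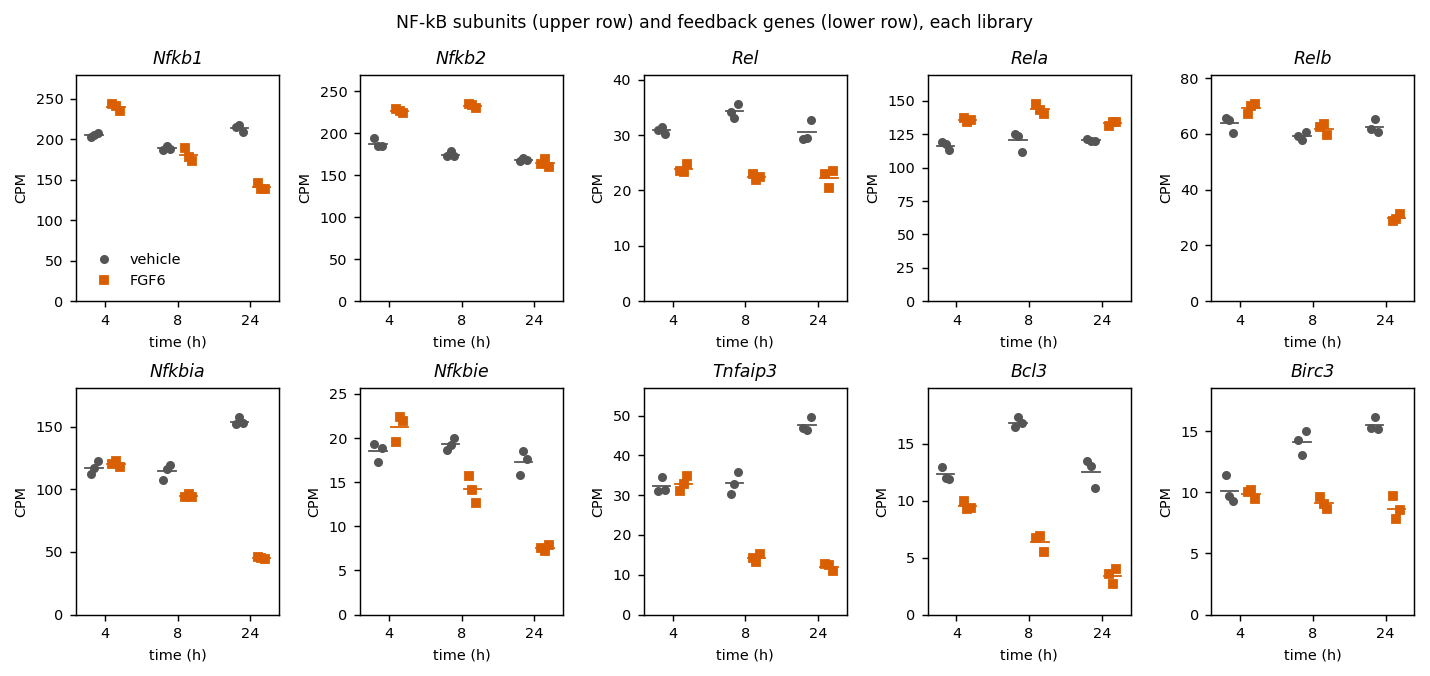
CPM (y axis, from 0) of each of the 10 genes at 4, 8 and 24 h (x axis). Grey circles are the 3 vehicle libraries, orange squares the 3 FGF6 libraries, and short lines their means. At 24 h the FGF6 libraries of Nfkbia sit between 43.9 and 46.1 CPM and its vehicle libraries between 152 and 157 CPM.

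Nfkbia (ENSMUSG00000021025, chr12:55489410-55492647, minus strand) encodes IkB alpha, the inhibitor that NF-kB resynthesizes to shut itself off. At 4 h its vehicle libraries read 112, 117 and 122 CPM and its FGF6 libraries 120.4, 122 and 118 CPM, which overlapped. At 8 h it read 107, 117 and 119 CPM with vehicle and 93.8, 95.9 and 94.2 CPM with FGF6. At 24 h it read 152, 157 and 153 CPM with vehicle and 46.1, 45.2 and 43.9 CPM with FGF6. The groups were apart at 8 h and far apart at 24 h, when the vehicle libraries were the highest of the series and the FGF6 libraries the lowest. The log2 fold change was 0.04 at 4 h (SE 0.04, edgeR adjusted p = 0.407; below 0 with library totals alone and with upper-quartile scaling), -0.27 at 8 h (SE 0.04, edgeR adjusted p = 6.76e-07) and -1.77 at 24 h (SE 0.04, edgeR adjusted p = 1.47e-22), a level 70.7% lower than in vehicle.

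Nfkbie (ENSMUSG00000023947, chr17:45555703-45563169, plus strand) encodes IkB epsilon, a second inducible inhibitor. It read 19.3, 17.3 and 18.8 CPM with vehicle and 19.6, 22.3 and 21.9 CPM with FGF6 at 4 h. At 8 h it read 18.7, 19.2 and 20.0 CPM with vehicle and 15.7, 14.1 and 12.7 CPM with FGF6. At 24 h it read 15.8, 18.5 and 17.6 CPM with vehicle and 7.55, 7.25 and 7.89 CPM with FGF6. The FGF6 libraries were thus just above vehicle at 4 h and below it at 8 and 24 h, without overlap at any time. The log2 fold changes were 0.20 (SE 0.07), -0.44 (SE 0.08) and -1.20 (SE 0.09), with an edgeR adjusted p of 0.0186, 1.50e-05 and 3.09e-12. The call at 4 h was lost with library totals alone and with upper-quartile scaling, and without vehicle replicate 2 of 4 h (log2 fold change 0.16, edgeR adjusted p = 0.101).

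Tnfaip3 (ENSMUSG00000019850, chr10:19000910-19015657, minus strand) encodes A20, a ubiquitin-editing enzyme that takes down receptor signaling complexes, and it had the lowest log2 fold change of the 10 genes. At 4 h the vehicle libraries read 31.0, 34.7 and 31.3 CPM and the FGF6 libraries 31.1, 32.9 and 34.7 CPM. At 8 h they read 30.4, 32.8 and 35.8 CPM with vehicle and 14.2, 13.2 and 15.2 CPM with FGF6. At 24 h they read 46.9, 46.4 and 49.5 CPM with vehicle and 12.6, 12.6 and 10.8 CPM with FGF6. The groups overlapped fully at 4 h and were well apart at both later times. The log2 fold change was 0.02 at 4 h (SE 0.06, edgeR adjusted p = 0.764; below 0 with library totals alone and with upper-quartile scaling), -1.22 at 8 h (SE 0.07, edgeR adjusted p = 5.41e-14) and -1.99 at 24 h (SE 0.07, edgeR adjusted p = 1.69e-18), the last a 3.96-fold lower level.

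Bcl3 (ENSMUSG00000053175, chr7:19808462-19822770, minus strand) encodes a nuclear IkB family member that binds dimers on DNA and modulates transcription. It was the only feedback gene that was already lower at 4 h. The vehicle libraries read 13.0, 11.96 and 11.95 CPM at 4 h, 16.4, 17.3 and 16.8 CPM at 8 h, and 13.5, 13.0 and 11.1 CPM at 24 h. With FGF6 they read 9.95, 9.24 and 9.39 CPM, then 6.74, 6.86 and 5.51 CPM, then 3.54, 2.71 and 3.96 CPM. The FGF6 libraries were below vehicle at each time, and lower at each later time than at the one before. The log2 fold changes were -0.37 (SE 0.09), -1.40 (SE 0.10) and -1.89 (SE 0.11), with an edgeR adjusted p of 0.00127, 1.45e-12 and 5.35e-14. Of its 2475 exonic bases 161 overlap the opposite-strand gene Gm16175.

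Birc3 (ENSMUSG00000032000, chr9:7848699-7873186, minus strand) encodes cIAP2, a ubiquitin ligase of the tumor necrosis factor receptor complex and an inhibitor of cell death. Its vehicle libraries read 11.4, 9.74 and 9.31 CPM at 4 h, 14.3, 13.0 and 15.03 CPM at 8 h, and 15.2, 16.1 and 15.2 CPM at 24 h. Its FGF6 libraries read 10.1, 10.2 and 9.43 CPM, then 9.64, 9.08 and 8.63 CPM, then 9.67, 7.79 and 8.55 CPM. Here the vehicle level moved more than the FGF6 level, which overlapped between neighbouring times. The log2 fold change was -0.03 at 4 h (SE 0.09, edgeR adjusted p = 0.764; above 0 when the 4 h libraries were fitted alone), -0.63 at 8 h (SE 0.09, edgeR adjusted p = 4.82e-07) and -0.84 at 24 h (SE 0.09, edgeR adjusted p = 2.98e-09).

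Libraries of the compared groups did not overlap for 7 of the 10 genes at 4 h, 8 at 8 h and 9 at 24 h, against 66.2%, 73.8% and 74.8% of all tested genes, so separation as such was common in these data. With a minimum change of 1.5-fold added to the adjusted p, 0 of the 10 genes passed at 4 h, where 9.7% of all tested genes rose and 13.7% fell by this rule. At 8 h 4 fell by it (Rel, Tnfaip3, Bcl3 and Birc3) and 0 rose, against 19.6% and 13.8%. At 24 h 7 fell by it and 0 rose, against 23% and 15.3%, with Rel as the gene that no longer passed among the 8 that fell.

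The change of the FGF6 effect with time was tested as an interaction in the same fit. From 4 to 8 h the effect moved lower for 7 genes and higher for 1, Nfkb2, against 15.1% and 15.5% of all tested genes. From 8 to 24 h it moved lower for 7 and higher for 0, against 22.5% and 22.6%. The 24 h effect lay below the 4 h effect for 8 genes and above it for 0, against 25.2% and 28.3%. The genes outside that last count were Rel and Rela, whose difference of -0.08 each did not pass and turned sign with library totals alone. These comparisons share libraries with those at single times and are not separate evidence.

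Part of this movement lay in the vehicle cells. Without FGF6, 3 of the 10 genes rose from 4 to 24 h and 1 fell, where 30.9% of all tested genes rose and 30% fell. The genes that rose were Nfkbia (log2 fold change 0.39, SE 0.04, edgeR adjusted p = 1.34e-09), Tnfaip3 (0.56, SE 0.06, edgeR adjusted p = 2.23e-08) and Birc3 (0.62, SE 0.08, edgeR adjusted p = 6.02e-07), all of them feedback genes. Nfkb2 fell slightly (-0.16, SE 0.03, edgeR adjusted p = 9.09e-05). From 4 to 8 h 3 genes rose and 2 fell in vehicle, against 21.2% and 21.7% of all tested genes, and from 8 to 24 h 3 rose and 2 fell, against 25.5% and 23.7%. Bcl3 peaked at 8 h, with a rise of 0.45 from 4 h and a fall of 0.42 to 24 h on the log2 scale. The mean vehicle level of Nfkbia went from 114 ± 6.41 CPM at 8 h to 154.0 ± 2.90 CPM at 24 h (SD, n = 3), while its FGF6 level went from 94.6 ± 1.14 to 45.1 ± 1.11 CPM, so the 24 h difference held a higher control as well as a lower treated level. In bulk RNA, fewer cells that make a transcript and less transcript per cell cannot be told apart.

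To compare subunits with each other, CPM were divided by the length of each gene's exons in kb. On this scale Nfkb2 and Rela transcripts were the most abundant and Rel the least in every group, but the place of Nfkb1 depends on the length taken, as given below. At 24 h Rela made up 34.5% ± 0.43 of the sum of the 5 subunits in vehicle and 42.7% ± 0.44 with FGF6 (SD, n = 3), and Nfkb2 went from 32.2% to 35.3%. Relb went from 14.2% ± 0.43 to 7.56% ± 0.36, and Nfkb1 from 15.6% ± 0.20 to 11.5% ± 0.42. None of the ranges of the Rela, Relb and Nfkb1 shares overlapped. A share also depends on the levels of the other subunits. At 24 h the mean level of Nfkb2 was 168 CPM in vehicle and 164 CPM with FGF6, although its share was higher with FGF6. Rela went from 120.5 to 133 CPM, while Relb went from 62.6 to 29.8 CPM and Nfkb1 from 214 to 141 CPM. The share of Rela at 4 h was 32.6% in vehicle and 32.8% with FGF6. Nfkbia stood at 0.840 ± 0.0090 times the sum of the 5 subunits in vehicle at 24 h and at 0.276 ± 0.0073 times with FGF6, against 0.626 and 0.556 at 4 h. With the longest transcript as the length in place of all exons, Nfkb1 took 31.6% in vehicle at 24 h, since its annotated exons sum to 12061 bases but its longest transcript to 4149. It was then the most abundant subunit on average in all 3 vehicle groups, at 4 and 8 h by less than 1 percentage point over Nfkb2, and Rel was still the least abundant in every group. The direction of the 24 h differences was the same with that length, for Rela from 27.3% to 35.6% and for Nfkbia from 0.599 to 0.207 times the sum. No test was run on these shares, which describe transcripts and not proteins.

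**Figure D3:**
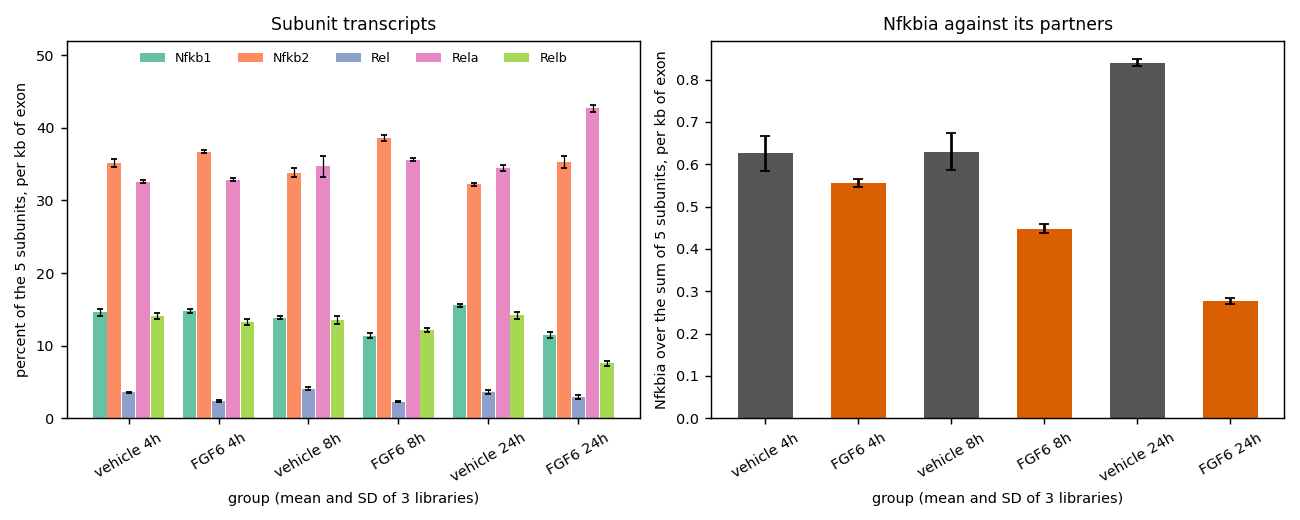
Left, percent of the summed transcript level of the 5 subunits taken by each (y axis, CPM per kb of exon) in the 6 groups (x axis). Right, Nfkbia level over that sum. Bars are means and error bars the SD of 3 libraries. At 24 h Rela takes 42.7% with FGF6, and the Nfkbia ratio is 0.276 against 0.840 in vehicle.

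Each other list of the pathway held genes that rose and genes that fell, and so did the tested genes as a whole. Over all tested genes 28.6% rose and 34.2% fell at 4 h, 32.4% and 38.4% at 8 h, and 35.9% and 37.9% at 24 h. Their median log2 fold change was -0.05, -0.05 and -0.02 at these times. The counts and medians of each list below are to be read beside these values. Of the 10 tested genes of the remaining IkB family and the IKK complex, 5 rose and 2 fell at 4 h, 5 rose and 3 fell at 8 h, and 2 rose and 5 fell at 24 h, with a median log2 fold change of 0.14, 0.10 and -0.07. Nfkbiz, a nuclear IkB protein induced by Toll-like receptors, fell at 24 h from 141 to 97.4 CPM (log2 fold change -0.54, edgeR adjusted p = 4.53e-10). Nfkbib, encoding IkB beta, rose at 8 h (0.43) and read 21.6 CPM in vehicle and 22.03 CPM with FGF6 at 24 h. Btrc, which encodes an F-box protein that recognizes phosphorylated IkB, fell at 8 h (-0.42) and less at 24 h (-0.18). Fbxw11, the other F-box gene of the list, rose at all 3 times (0.41, 0.23 and 0.28). The nuclear IkB gene Nfkbid rose at 4 and 8 h but was at or below 1.12 CPM in the mean of every group.

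Of 32 tested adaptors, kinases and ubiquitin enzymes, 11 rose and 11 fell at 4 h, 11 and 14 at 8 h, and 16 and 14 at 24 h, with medians of -0.01, -0.06 and 0.05. Tnip1, which encodes a ubiquitin-binding partner of A20, fell at all 3 times and went from 77.7 ± 4.00 CPM in vehicle to 21.9 ± 1.75 CPM with FGF6 at 24 h (SD, n = 3), a log2 fold change of -1.83 (SE 0.06, edgeR adjusted p = 6.14e-19) after -0.37 at 4 h and -1.02 at 8 h. Rnf11, whose product is another known component of the A20 complex, went up instead, from 118 ± 1.06 to 438 ± 19.8 CPM at 24 h, a log2 fold change of 1.90 (SE 0.04, edgeR adjusted p = 4.39e-23). Members of the A20 complex therefore moved in opposite directions. Traf5, an adaptor of tumor necrosis factor receptors, rose at all 3 times (1.17, 1.33 and 0.95), and Traf1 rose at 8 and 24 h from levels under 1 CPM.

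Of 17 tested receptors that signal to NF-kB, 6 rose and 7 fell at 4 h, 5 and 9 at 8 h, and 4 and 12 at 24 h, and their medians were -0.12, -0.60 and -0.58. Tlr2, the receptor for bacterial lipoproteins, fell from 266 ± 13.9 CPM in vehicle to 20.8 ± 0.71 CPM with FGF6 at 24 h (SD, n = 3; log2 fold change -3.68, edgeR adjusted p = 1.56e-23). Its partner Tlr6 fell from 1.69 CPM to 0.110 CPM, and Tlr3, the receptor for double-stranded RNA, fell from 51.6 to 6.33 CPM (log2 fold change -3.03, edgeR adjusted p = 1.28e-12). Il1rl1, the receptor for interleukin 33, rose instead, from 505 to 3464 CPM at 24 h (log2 fold change 2.78, edgeR adjusted p = 1.67e-24). The receptors named so far, picked for large changes, were thus Toll-like receptors that fell and an abundant interleukin receptor that rose. Of the rest at 24 h, Tlr4 fell less (-0.27), and Il1rap and Tnfrsf12a were among the 4 genes that rose (2.42 and 2.14).

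Of 14 ligand genes 8 could be tested, and 3 rose and 1 fell at 4 h, 2 and 4 at 8 h, and 2 and 5 at 24 h, with medians of -0.10, -0.66 and -1.17. Il33 rose from 0.624 ± 0.043 CPM in vehicle to 98.3 ± 5.86 CPM with FGF6 at 24 h (SD, n = 3; log2 fold change 7.30, edgeR adjusted p = 6.26e-27). Il1rn, the interleukin receptor antagonist, rose at 4 and 8 h (0.64 and 0.72) and fell at 24 h (-1.92). Il18 fell at 8 and 24 h (-0.75 and -1.55). Tnfsf10, a death receptor ligand, read 4.04 CPM in vehicle and 0.0850 CPM with FGF6 at 24 h, where its highest count in a library was 4.

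Of 34 tested textbook NF-kB target genes, 17 rose and 9 fell at 4 h, 17 and 14 at 8 h, and 13 and 19 at 24 h, with medians of 0.55, 0.46 and -0.84. The spread was wide at every time. Saa3, an acute-phase reactant, read 986 and 1001 CPM in the means of vehicle and FGF6 at 4 h, fell at 8 h (log2 fold change -0.79) and fell at 24 h from 182 to 2.77 CPM (log2 fold change -6.04, SE 0.19, edgeR adjusted p = 9.31e-20). It belongs to a multigene family, so reads shared with its paralogs are uncertain. Mmp3, encoding the matrix protease stromelysin, rose from 0.190 to 11.1 CPM at 24 h (log2 fold change 5.86, edgeR adjusted p = 7.37e-18). Csf3, which encodes a granulocyte growth factor, and Sele, which encodes E-selectin, were higher with FGF6 at 24 h, at 0.869 and 1.20 CPM, where no vehicle library held more than 2 and 1 counts. Targets of NF-kB thus moved both ways, as did all tested genes (35.9% rose and 37.9% fell at 24 h). The 5 feedback genes fell together at 8 and 24 h but not at 4 h.

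**Figure D4:**
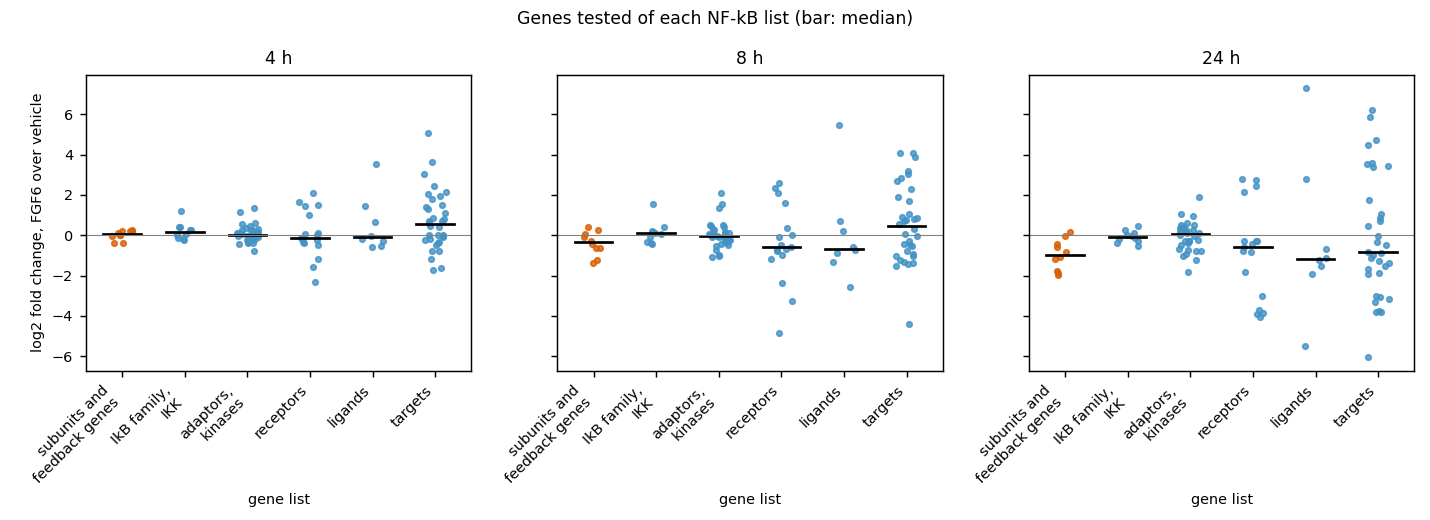
Log2 fold change of FGF6 over vehicle (y axis) at 4, 8 and 24 h (panels) for the tested genes of 6 lists (x axis). Each point is a gene and each bar the list's median. The 10 subunit and feedback genes (orange) reach a median of -0.96 at 24 h, and the target genes spread from -6.04 to 6.23 there.

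Marker genes of cell identity moved with FGF6 as well. Of 9 preadipocyte and stromal markers 8 were tested, and at 24 h 7 fell and 1 rose, against 37.9% and 35.9% of all tested genes. The summed level of the 9 markers was 6020 to 6454 CPM in vehicle and 1455 to 1525 CPM with FGF6 at 24 h, against 3976 to 4169 and 2483 to 2631 CPM at 4 h. Col1a1 was the most abundant of them (418 to 3618 CPM), and Dlk1 was at 0 in all 18 libraries. The 8 adipocyte markers summed to 234 to 259 CPM in vehicle and 82.9 to 89.9 CPM with FGF6 at 24 h, and Fabp4 was the most abundant. Of the 6 tested, 5 were lower and 1 higher (Ucp1, at most 25 counts in a library). Lep was at 0 in all libraries. Of the 11 leukocyte markers 4 were tested, and at 24 h 1 rose (Cd14, up to 43.6 CPM) and 3 fell. Those that fell were Cd68 (up to 16.7 CPM, log2 fold change -0.85), Csf1r (up to 4.15 CPM, -1.77) and Lyz2 (up to 1.21 CPM, -4.52). The list summed to 15.1 to 16.3 CPM in vehicle and 44.5 to 47.1 CPM with FGF6 at 24 h, where Cd14 made up most of the FGF6 sum, while Ptprc and Adgre1 never exceeded 2 counts, and Cd3e was at 0. Endothelial markers summed to at most 5.65 CPM, with 0.995 to 1.33 CPM in vehicle and 3.71 to 5.65 CPM with FGF6 at 24 h. Skeletal muscle markers summed to at most 8.99 CPM with Myf5 at 0. At 24 h they summed to 5.85 to 6.77 CPM in vehicle and 1.605 to 2.13 CPM with FGF6. The part of these shifts in the fall of the feedback genes was not tested.

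Across the 18 libraries the genes whose log2(CPM + 0.5) followed the 3 most changed genes most closely were named by Pearson's r, as a description over libraries that share 6 groups. For Nfkbia they were Enpp3 (r = 0.994), Ggt7 (r = 0.990) and Abi3bp (r = 0.989). For Tnfaip3 they were Rhbdf2 (r = 0.978), Mfap2 (r = 0.977) and Fcgrt (r = 0.976), and for Bcl3 Susd6 (r = 0.977), Gng12 (r = 0.976) and Ccdc141 (r = 0.974). None is a gene of the NF-kB lists. Abi3bp, an extracellular matrix gene, went from 51.2 CPM in vehicle to 1.03 CPM with FGF6 at 24 h.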

How the data were processed

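The authors treated immortalized murine brown preadipocytes with vehicle or FGF6 for 4, 8 or 24 h, sequenced total RNA on an Illumina instrument, aligned reads to GRCm38 with STAR and counted them per gene with Subread featureCounts (versions and strand setting not given in the sources used here). The deposited table holds raw counts for 48023 genes in 18 libraries, with no normalization by the authors. Groups were taken from the sample labels.

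Counts were scaled by TMM and tested with edgeR 4.0.16 (glmQLFit and glmQLFTest, R 4.3.3) over all 18 libraries with 6 group means. filterByExpr kept 15071 genes, p-values were adjusted by Benjamini-Hochberg over all of them, and calls were made under 0.05 (the study's 0.25 was an alternative). CPM are counts over TMM-scaled totals of the tested genes. Gene positions and exon lengths came from GENCODE, and promoter windows from RefSeq. A simulation drew counts around each gene's mean over all 18 libraries and changed 200 genes in the FGF6 8 h group (14720 genes tested). On the log2 scale the test recovered 47 of 72 genes changed by 0.5, 51 of 64 changed by 1 and 63 of 63 changed by 2. It made 6 false calls among 14521 unchanged genes. In the real data far more genes were called at 8 h (32.4% higher and 38.4% lower). These simulated rates therefore do not describe the calls reported here. A count of 3 corresponded to 0.0905 to 0.126 CPM. Alternatives were other scalings, DESeq2 1.42.0, limma 3.58.1 with voom (the study's tool), other filters, fits by time, a replicate block, other thresholds and leaving out each library.

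The 10 genes, the other gene lists and the tests were chosen with earlier results of these data known. From each other list the text names the 4 genes with the largest absolute log2 fold change at any time among those called, without overlap between groups and with at least 1 CPM in the higher group, from marker lists the most abundant genes and those at 0, and the 3 genes most correlated with each of the 3 members with the largest change. Further markers (Ptprc, Adgre1, Cd14, Cd68, Csf1r, Lyz2 and Ucp1) were named after their values were seen. So were the list genes Fbxw11, Tlr4, Il1rap and Tnfrsf12a.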

Additional observations from a re-analysis of the deposited data

Results flagged for a closer look

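These values differed between time points by the interaction test of the same edgeR fit, in which the FGF6 effect at the earlier time was subtracted from that at the later time (adjusted p under 0.05, log2 scale). Neighbouring comparisons share the libraries of a time point. From 4 to 8 h the effect moved by -1.24 for Tnfaip3, -1.03 for Bcl3, -0.64 for Nfkbie, -0.59 for Birc3, -0.31 for Nfkbia, -0.29 for Nfkb1, -0.24 for Rel and 0.14 for Nfkb2. From 8 to 24 h it moved by -1.50 for Nfkbia, -1.14 for Relb, -0.77 for Tnfaip3, -0.76 for Nfkbie, -0.54 for Nfkb1, -0.49 for Bcl3 and -0.45 for Nfkb2. From 4 to 24 h it moved by -2.01 for Tnfaip3, -1.81 for Nfkbia, -1.52 for Bcl3, -1.40 for Nfkbie, -1.19 for Relb, -0.83 for Nfkb1, -0.81 for Birc3 and -0.30 for Nfkb2. Nfkbia moved mostly after 8 h, and Tnfaip3 and Bcl3 mostly before it.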

How the results depend on the processing

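At 24 h the 8 genes lower and 1 higher kept these counts under every scaling, filter, tool and left-out library tried, and at FDR 0.25, and only the added 1.5-fold minimum changed them (7 lower and 0 higher). That minimum also left 0 higher and 0 lower at 4 h, 0 higher at 8 h, 0 higher and 4 lower for the effect from 4 to 8 h, 4 lower from 8 to 24 h, and in vehicle 0 and 0 from 4 to 8 h, 0 and 0 from 8 to 24 h, and 1 and 0 from 4 to 24 h. With library totals alone or upper-quartile scaling 3 genes were higher at 4 h, the effect from 8 to 24 h was higher for 1, and 4 fell in vehicle from 8 to 24 h. At 8 h these 2 scalings gave 2 higher and 7 lower, DESeq2's size factors in edgeR and a fit of the compared times alone 3 higher and 6 lower, and FDR 0.25 gave 3 higher and 7 lower. At FDR 0.25 the effect from 8 to 24 h was higher for 1 and lower for 9, and 5 rose and 4 fell in vehicle between these times. The cause was not tested. Signs turned only among values that were not called. With library totals alone these were, at 4 h, Nfkbia (-0.0639) and Tnfaip3 (-0.0772), at 8 h Relb (-0.0005), for the effect from 4 to 24 h Rel (0.0176) and Rela (0.0185), and in vehicle Rela from 8 to 24 h (-0.0756) and from 4 to 24 h (-0.0051) and Bcl3 from 4 to 24 h (-0.0189). With upper-quartile factors they were Nfkbia (-0.0193) and Tnfaip3 (-0.0327) at 4 h and Rela in vehicle from 8 to 24 h (-0.0318), which also turned with no filter (-0.025) and with at least 10 counts in every library (-0.0062). Birc3 at 4 h was 0.0069 with only the libraries of that time. Leaving out each library in turn gave 4 to 5 genes higher at 4 h, 6 to 7 lower at 8 h, 6 to 7 lower for the effect from 4 to 8 h, 0 to 1 higher (1 without FGF6 replicate 2 of 24 h) and 6 to 8 lower from 8 to 24 h, and in vehicle 2 to 3 higher and 1 to 3 lower from 4 to 8 h (1 without replicate 1 of 4 h) and 2 to 3 lower from 8 to 24 h. Signs that turned then had ranges of -0.09 to 0.0567 (Birc3, 4 h), -0.0059 to 0.10 (Tnfaip3, 4 h), -0.0113 to 0.0683 (Rela, effect from 4 to 8 h), and in vehicle -0.0341 to 0.0836 (Tnfaip3, 4 to 8 h), -0.0686 to 0.0079 (Nfkbia, 4 to 8 h), -0.0467 to 0.0329 (Rela, 8 to 24 h), -0.0737 to 0.0047 (Rel, 4 to 24 h) and -0.0191 to 0.10 (Bcl3, 4 to 24 h).

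Replicate numbers are shared across groups, but same-numbered vehicle and FGF6 libraries of a time did not visibly deviate together (correlations of -0.0255 to 0.0515). No pairing by number was therefore seen, but with 3 libraries in each group this check cannot show that the samples were unpaired. A fit with the replicate block gave 8 genes lower and 1 higher at 24 h and changed no count of calls among the 10 genes. Low counts limit Bcl3 with FGF6 at 24 h, where libraries held 76 to 108 counts.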
